A study of Mus musculus with 20 samples.

Results

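The 4 Id genes and 6 genes of bone morphogenetic protein (BMP) signalling were followed across mouse neurospheres, free-floating clusters grown from neural stem and progenitor cells in medium with EGF and FGF. The 10 genes were taken by symbol from a table of 36724 genes: Id1, Id2, Id3, Id4, Bmp4, Bmp7, Bmpr1a, Bmpr1b, Smad6 and Nog. Spheres came from C57BL/6 mice aged 8 to 12 weeks, either Egfl7 knockout (KO, EGFL7-/-) or wild type (WT), and were untreated. The 20 RNA-seq libraries formed 6 groups. Spheres of the subventricular zone (SVZ) were grown for 3 days, with 3 KO and 3 WT libraries, all from male donors. Hippocampal spheres labelled spheres2, called HC2, were grown for 5 days, with 4 KO and 4 WT libraries, all from male donors. Hippocampal spheres labelled spheres1, called HC1, were also grown for 5 days, with 3 KO libraries from male donors and 3 WT libraries from female donors, so genotype and sex cannot be told apart in HC1. SVZ spheres are labelled spheres1 too, and the labels do not say whether the number marks a round of sphere formation or an experiment, so HC1 and HC2 are called sets. Each library of a group has its own mouse number, but numbers recur between groups of 1 genotype and sex: KO mouse number 1 in HC2 and HC1, KO mouse number 4 in SVZ and HC2, and WT mouse numbers 5 and 6 in SVZ and HC2. The labels do not say whether these are the same animals, and the comparisons of sets and regions treat all libraries as independent, so their p-values do not allow for shared donors. In bulk RNA, fewer cells of a type and less RNA per cell cannot be told apart.

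BMPs are secreted ligands that bind paired type I and type II receptor kinases. The type I receptor phosphorylates receptor Smads, which enter the nucleus with Smad4, and Id genes are among their best-known direct targets. Id proteins have a helix-loop-helix but no DNA-binding basic region, so they hold E proteins and other basic helix-loop-helix (bHLH) factors away from DNA, and they are known for keeping progenitors from differentiating. In the adult hippocampus BMP signalling is known to hold stem cells in quiescence, and in the SVZ the antagonist Noggin is part of the niche.

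The windows around the starts of Id2, Id3 and Id4 are shown because these genes are textbook Smad targets that followed 3 different patterns across the groups. Capitals mark GGCGCC, a GC-rich sequence that BMP-activated Smads are known to bind; it reads the same on both strands. Each window runs from 250 bases before to 50 bases after the start that RefSeq annotates, on GRCm38.p6, 5′ to 3′ on the gene's own strand.
Id2, chr12:25096043-25096342, minus strand: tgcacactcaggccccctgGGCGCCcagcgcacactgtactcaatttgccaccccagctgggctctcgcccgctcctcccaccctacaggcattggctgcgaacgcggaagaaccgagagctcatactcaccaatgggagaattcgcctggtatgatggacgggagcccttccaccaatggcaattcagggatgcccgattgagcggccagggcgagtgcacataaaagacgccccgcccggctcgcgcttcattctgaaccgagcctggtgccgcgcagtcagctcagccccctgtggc
Id3, chr4:136143572-136143871, plus strand: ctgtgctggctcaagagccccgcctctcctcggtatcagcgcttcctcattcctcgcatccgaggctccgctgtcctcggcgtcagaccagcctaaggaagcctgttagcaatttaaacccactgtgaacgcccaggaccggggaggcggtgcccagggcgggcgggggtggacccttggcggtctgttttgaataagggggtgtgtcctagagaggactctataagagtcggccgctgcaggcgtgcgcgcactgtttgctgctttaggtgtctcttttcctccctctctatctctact
Id4, chr13:48260866-48261165, plus strand: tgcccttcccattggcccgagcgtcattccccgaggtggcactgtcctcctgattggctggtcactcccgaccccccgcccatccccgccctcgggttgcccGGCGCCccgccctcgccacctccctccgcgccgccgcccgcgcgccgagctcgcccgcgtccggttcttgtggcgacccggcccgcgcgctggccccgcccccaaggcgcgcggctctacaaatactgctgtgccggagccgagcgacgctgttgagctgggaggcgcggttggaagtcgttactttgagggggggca
The Id2 window and the Id4 window held 1 GGCGCC each, and the Id3 window held 0. Across 32851 RefSeq windows of 300 bases, 11.9% held it. The shorter Smad-binding sequence GTCT, searched on both strands, occurred 1 time at Id2, 3 times at Id3 and 0 times at Id4, and 88.0% of all windows held it. GC content was 63.3% at Id2, 60.0% at Id3 and 73.3% at Id4, against a median of 52.7% over all windows. Of the 10 genes, 7 had a window in that table, and Id1, Bmp7 and Nog did not. The Id4 window lies upstream of the start deposited for the gene, 48261427.

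In the deposited annotation (GRCm38) the Id genes lie on separate chromosomes, Id1 at chr2:152736237-152737410, Id2 at chr12:25093799-25096092, Id3 at chr4:136143822-136145392 and Id4 at chr13:48261427-48264036. The ligand genes are Bmp4 at chr14:46383520-46390599 and Bmp7 at chr2:172868012-172940321, and the antagonist Nog is at chr11:89300638-89302559. The receptor genes are Bmpr1a at chr14:34411061-34503532 and Bmpr1b at chr3:141837136-142169590, and Smad6 is at chr9:63953076-64022085. Values are given per gene, with no separate values for exons or introns, and the gene lengths behind them are not stated. Low values of Id4, Bmp4, Smad6 and Nog gave whole read numbers when coding length was used.

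Egfl7, the deleted gene, was listed at 0 RPKM (reads scaled by gene length and library depth) in all 4 HC2 KO and all 3 HC1 KO libraries, against 0.996 to 1.59 RPKM in HC2 WT and 0.566 to 1.34 RPKM in HC1 WT libraries. In the SVZ it was 0.094, 2.86 and 0 RPKM in the libraries labelled KO, against 1.73, 2.99 and 0 RPKM in those labelled WT. SVZ KO replicate 2 and SVZ WT replicate 3 thus go against their labels, and SVZ results are given with and without them. The values imply about 12000000 to 13900000 counted reads in SVZ, 17800000 to 31200000 in HC2 and 11700000 to 12900000 in HC1 libraries, so depth and set differ together. All 10 neural stem and progenitor markers were kept in testing, while 2 of 10 endothelial markers were, with a summed level of 3.79 to 8.23 RPKM in SVZ, 0.977 to 2.39 RPKM in HC2 and 1.86 to 2.84 RPKM in HC1. Cdh5 and Cldn5, which define endothelial cells, were 0 in every SVZ library, while the 2 kept markers had higher values in the SVZ, as given with the region comparison.

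Bmp7 was the abundant ligand and Bmp4 the scarce one. Bmp7 measured 63.9, 48.6 and 55.7 RPKM in SVZ KO and 63.6, 73.0 and 68.3 RPKM in SVZ WT spheres. In hippocampal spheres it ranged more widely, with 54.2, 25.4, 45.0 and 22.3 RPKM in HC2 KO (replicates 1, 4, 7 and 8) and 66.6, 15.8, 9.83 and 34.0 RPKM in HC2 WT (replicates 2, 3, 5 and 6). HC1 KO spheres had 55.6, 45.5 and 48.0 RPKM of Bmp7, and HC1 WT spheres 21.7, 38.6 and 49.3 RPKM. The SVZ libraries thus lay in a narrow band, and the lowest values were those of HC2 WT replicates 5 and 3. The span of Bmp7 overlaps that of LOC105244391 on the same strand. Overlap of exons was not checked, so whether they share reads is not known.

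Bmp4 read 0.125, 0.063 and 0.449 RPKM in SVZ KO and 0.408, 0.128 and 0 RPKM in SVZ WT libraries, which is 0 to 7 reads each. Its HC2 values were 0.914, 0, 0.046 and 0.441 RPKM in KO and 0.285, 6.71, 1.56 and 0.284 RPKM in WT libraries, where replicate 3 alone had 212 reads. HC1 had 2.90, 1.47 and 0.4 RPKM in KO and 2.17, 2.84 and 4.03 RPKM in WT libraries. Bmp4 was therefore scarce throughout, and HC1 was the only group pair in which every library held at least 6 reads. The span of Bmp4 overlaps those of Gm15217 and LOC102638002 on the opposite strand. Use of strand in counting is not stated and overlap of exons was not checked, so whether they share reads is not known.

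Nog encodes Noggin, a secreted protein that binds BMPs and blocks them. Its level was 0.44, 0.446 and 0.338 RPKM in SVZ KO and 1.31, 0.449 and 0.206 RPKM in SVZ WT spheres. HC2 KO libraries held 1.51, 1.38, 1.29 and 1.55 RPKM, and HC2 WT libraries 1.401, 4.23, 5.19 and 2.94 RPKM. HC1 KO spheres had 0.83, 0.981 and 0.702 RPKM, and HC1 WT spheres 0.447, 0.113 and 0.996 RPKM. These values are 2 to 11 reads a library in SVZ and 1 to 9 in HC1, against 16 to 106 in HC2. Every HC2 library was above every HC1 library, and the HC2 KO values sat within a far narrower range than the HC2 WT values.

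The type I receptors Bmpr1a and Bmpr1b were both well expressed. Bmpr1a was the most even of the 9 genes that entered testing: it ran from 77.1 to 82.4 RPKM in SVZ KO and from 84.5 to 87.5 RPKM in SVZ WT, from 65.4 to 95.6 RPKM in HC2 KO and from 81.9 to 113 RPKM in HC2 WT, and from 74.0 to 89.3 RPKM in HC1 KO and from 73.0 to 89.0 RPKM in HC1 WT. Bmpr1b was 27.7 to 31.3 RPKM in SVZ KO and 22.5 to 30.9 RPKM in SVZ WT. In HC2 it split, with 27.5, 74.6, 40.0 and 83.7 RPKM in KO and 30.1, 78.4, 60.6 and 74.0 RPKM in WT, against 25.1 to 33.6 RPKM in HC1 KO and 27.7 to 39.4 RPKM in HC1 WT. All HC2 libraries other than KO replicate 1 and WT replicate 2 stood above every HC1 library, and those 2 lay within the HC1 range.

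Smad6, an inhibitory Smad that BMP signalling itself induces, was barely detected. Of the 12 SVZ and HC1 libraries, 10 had 0 reads, SVZ KO replicate 3 had 2 and HC1 WT replicate 1 had 1. A count of 0 allows up to 0.145 to 0.173 RPKM there, taking 3 reads as the limit, for counting error only. HC2 KO libraries had 4, 5, 1 and 1 reads (0.086, 0.116, 0.038 and 0.033 RPKM), and HC2 WT libraries had 1, 12, 12 and 9 reads (0.024, 0.313, 0.276 and 0.234 RPKM). HC2 WT replicates 3, 5 and 6 were the libraries above what a count of 0 allows in SVZ and HC1. Smad6 did not pass the low-value filter (at least 0.5 RPKM in at least 3 libraries), so 9 of the 10 genes entered the fits.

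Id2 was the most abundant Id gene in every SVZ and HC1 library, and Id4 was the scarcest in every SVZ library. Id2 measured 80.6, 109 and 94.0 RPKM in SVZ KO and 127, 107 and 121 RPKM in SVZ WT spheres. HC2 KO spheres had 95.9, 87.5, 45.3 and 112 RPKM, and HC2 WT spheres 74.7, 169.5, 242 and 110.0 RPKM. HC1 KO spheres had 121, 83.2 and 101 RPKM, and HC1 WT spheres 151, 111 and 137 RPKM. Id2 ranges of KO and WT overlapped in all 3 kinds of sphere.

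Id3 came next in SVZ and HC1 spheres and exceeded Id2 in several HC2 libraries. It measured 44.3, 42.8 and 72.1 RPKM in SVZ KO and 74.0, 71.9 and 64.0 RPKM in SVZ WT. It reached 122, 127, 147 and 58.0 RPKM in HC2 KO and 140.4, 170.0, 102 and 109 RPKM in HC2 WT, against 44.2, 43.3 and 53.6 RPKM in HC1 KO and 71.0, 41.8 and 41.7 RPKM in HC1 WT. HC2 KO replicate 8 was the one HC2 library inside the HC1 range. Id1 was lower, with 9.10, 8.37 and 8.12 RPKM in SVZ KO and 6.41, 9.28 and 16.3 RPKM in SVZ WT spheres. Id1 in HC2 was 12.9, 11.2, 16.7 and 7.72 RPKM in KO and 8.95, 22.5, 15.4 and 15.7 RPKM in WT, and in HC1 it was 3.45, 4.89 and 3.95 RPKM in KO and 4.80, 5.90 and 4.99 RPKM in WT. Id1 in every SVZ and every HC2 library was above that of every HC1 library.

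Id4 covered the widest span of the family. SVZ KO libraries had 0.317, 0.16 and 0.324 RPKM and SVZ WT libraries 0.172, 0.807 and 0.889 RPKM, or 1 to 6 reads each. HC2 KO libraries had 9.75, 15.2, 3.24 and 10.4 RPKM, against 7.41, 38.8, 42.8 and 13.5 RPKM in HC2 WT libraries. HC1 KO libraries had 0.682, 1.59 and 0.842 RPKM, against 5.63, 3.09 and 1.91 RPKM in HC1 WT libraries. No HC2 library overlapped the SVZ range. The span of Id4 overlaps that of A330033J07Rik on the opposite strand, with the same limits on strand and exons as for Bmp4.

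**Figure D1:**
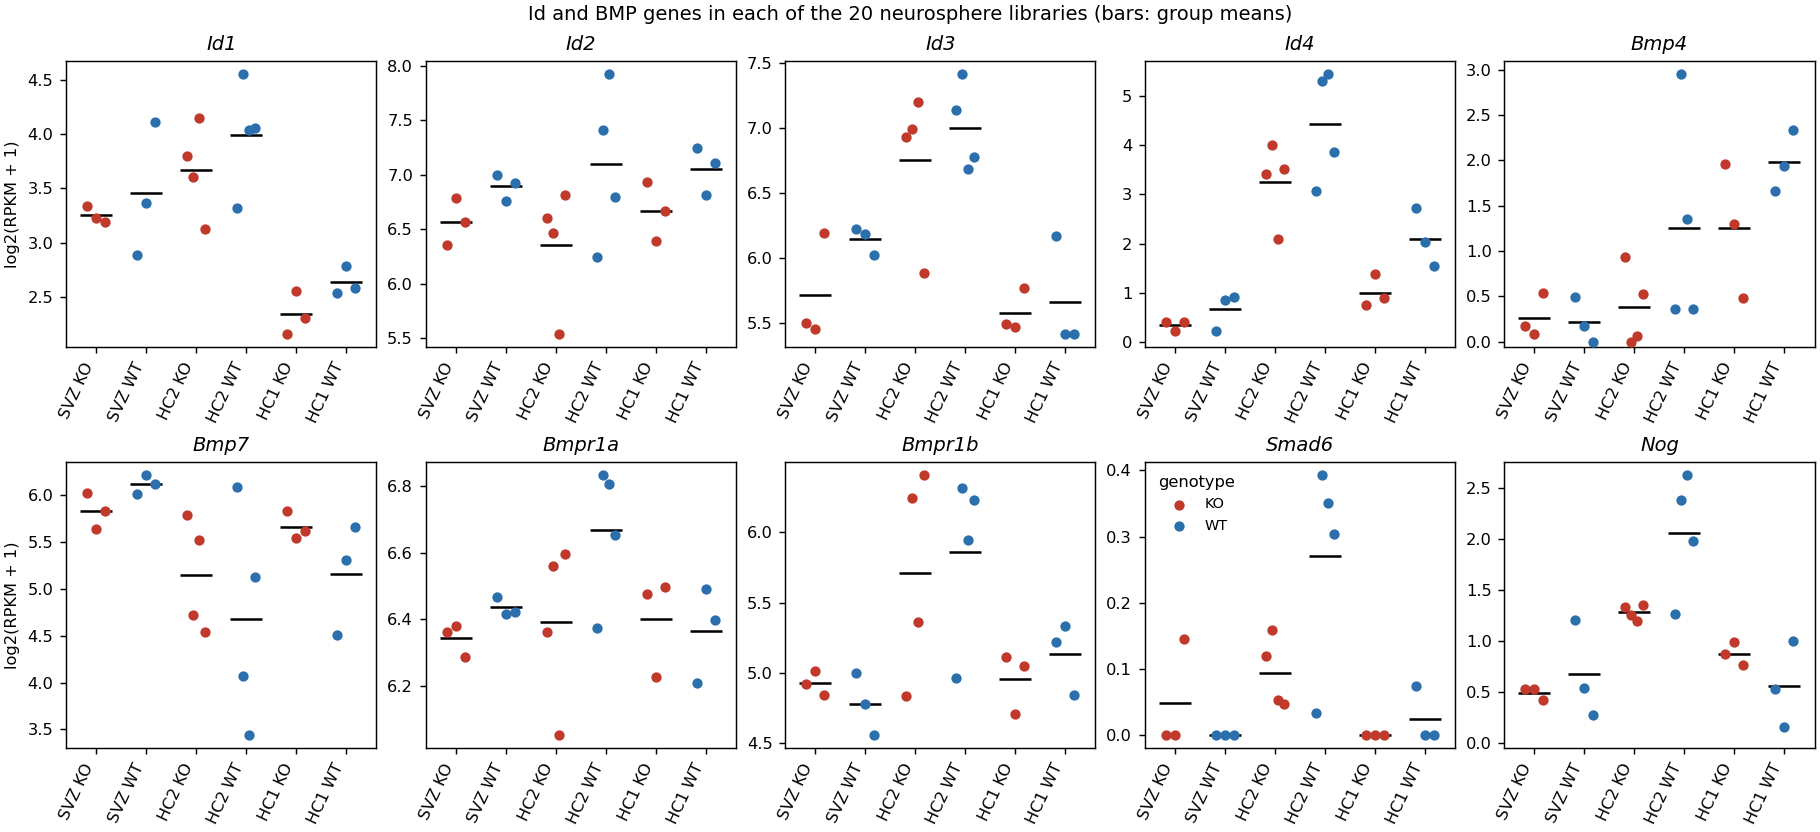
Each point is 1 library and each bar a group mean, on log2(RPKM + 1), for the 10 genes in SVZ, HC2 and HC1 spheres of KO (red) and WT (blue) mice. Id1, Id3, Id4 and Nog sit highest in HC2, while Bmpr1a stays between 65.4 and 113 RPKM in all groups.

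The first comparison asked whether loss of Egfl7, a secreted vascular and neural factor, goes with a change in these genes. No Id or BMP gene was called in KO against WT spheres of the SVZ, HC2 or HC1, or over both hippocampal sets, by limma at an adjusted p under 0.05. Among all 16403 genes tested, 0.0122% were called in the SVZ, 0.0244% in HC2, 0.0122% in HC1 and 0.0305% over both hippocampal sets (0.0061% higher and 0.0244% lower). At an unadjusted p under 0.05, 0 of 9 genes passed in the SVZ, 4 in HC2, 0 in HC1 and 3 over both sets, where 2.31%, 3.93%, 3.94% and 5.91% of all genes passed. The 4 in HC2 were Id2, Id4, Bmpr1a and Nog, and the 3 over both sets were Id2, Id4 and Bmp4.

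Id4 had the largest KO minus WT difference in both hippocampal sets. It averaged 9.65 ± 4.90 RPKM in HC2 KO and 25.6 ± 17.8 RPKM in HC2 WT (SD, n = 4 each), a log2 difference of -1.17 with a standard error of 0.47 (adjusted p = 0.988). In HC1 it averaged 1.04 ± 0.48 RPKM in KO and 3.54 ± 1.90 RPKM in WT (SD, n = 3 each), a log2 difference of -1.10 with a standard error of 0.55 (adjusted p = 0.976). The HC1 groups did not overlap, on 4, 9 and 5 reads in KO and 35, 19 and 12 reads in WT libraries. The two-sided exact permutation test gave p = 0.1, the smallest that 3 against 3 allow. Bmpr1a in the SVZ had no overlap either, with the same p. The share of all genes without overlap was not worked out. Over both sets the log2 difference was -1.13 (SE 0.36, 95% interval -1.90 to -0.37), with adjusted p = 0.750 and an exact permutation p of 0.0214 stratified by set. With the proliferation covariate described below that difference was -0.64 (adjusted p = 0.993). Leaving out 1 library moved the Id4 difference between -1.62 and -0.77 in HC2 and between -1.38 and -0.79 in HC1. In the SVZ the Id4 difference was -0.33 (SE 0.55), from 1 to 6 reads a library.

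Id2 averaged 85.1 ± 28.4 RPKM in HC2 KO and 149 ± 73.2 RPKM in HC2 WT (SD, n = 4 each), a log2 difference of -0.74 (SE 0.30, adjusted p = 0.988). Across both hippocampal sets its log2 difference was -0.57 (SE 0.23, adjusted p = 0.750), with an exact permutation p of 0.04, and -0.27 (adjusted p = 0.993) with the proliferation covariate. Leaving out 1 library moved the HC2 difference of Id2 between -1.02 and -0.46. Nog averaged 1.43 ± 0.12 RPKM in HC2 KO and 3.44 ± 1.64 RPKM in HC2 WT (SD, n = 4 each), a log2 difference of -0.78 (SE 0.25, adjusted p = 0.988), and its HC1 difference was 0.31 (SE 0.29). The difference between those 2 effects was -1.10 (SE 0.38, unadjusted p = 0.0109, adjusted p = 1.00), so it was not called. Bmp4 differed by -0.87 (SE 0.45) in HC2 and by -0.73 (SE 0.52) in HC1 on the log2 scale. Single libraries carried much of this: leaving out 1 moved the HC2 value between -1.17 and -0.31, the smaller size without WT replicate 3, and the HC1 value between -1.08 and -0.34, the smaller size without KO replicate 3.

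The 95% intervals bound what these groups could hide. In HC2 they ran from -0.88 to 0.24 for Id1, from -0.80 to 0.30 for Id3, from -0.81 to 0.51 for Bmpr1b and from -0.53 to -0.02 for Bmpr1a. Wider ones were -2.17 to -0.16 for Id4, -1.83 to 0.08 for Bmp4 and -0.44 to 1.37 for Bmp7. Id2 had -1.38 to -0.10 and Nog -1.31 to -0.25. Each interval is for 1 gene and not adjusted for the number of genes, so leaving out 0 is not a call. Bmp7 was the 1 gene of the 9 with a positive difference in HC2, 0.46 (SE 0.43), and its HC1 difference was 0.51 (SE 0.49). Both moved with single libraries: the HC2 value was 0.05 without WT replicate 5 and 0.93 without WT replicate 2, and the HC1 value was 0.18 without WT replicate 1. In the SVZ the 9 differences lay between -0.43 (Id3) and 0.15 (Bmpr1b), and none was called with or without SVZ KO replicate 2 and SVZ WT replicate 3. Smad6 gave an exact permutation p of 0.143 in HC2. None of the 3 differences of KO effects between SVZ, HC2 and HC1 was called for any of the 9 genes; among all genes 0.0244% were called between HC2 and HC1, 0.0122% between SVZ and HC1 and 0.0305% between SVZ and HC2 (0.0244% positive and 0.0061% negative). Of the 27 such differences, the 1 with an unadjusted p under 0.05 was the Nog difference given above.

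Proliferation genes also differed between HC2 KO and HC2 WT spheres on average. The mean log2(RPKM + 1) of 34 DNA replication and mitosis genes was 5.44, 3.75, 5.52 and 3.29 in HC2 KO libraries and 5.75, 2.51, 1.56 and 3.44 in HC2 WT libraries. All 34 had a positive KO minus WT difference, with a median of 1.26, and 0 were called. In HC1 all 34 were positive too, with a median of 0.49, and over both sets the median was 0.86, again with 0 called. The HC1 means were 5.70, 5.38 and 5.87 in KO and 4.48, 5.56 and 5.46 in WT libraries, with WT replicate 1 the lowest. The 34 genes share the same libraries, so their signs are not independent. Astrocyte markers lay the other way: 1 of 7 was positive in HC2 (median -0.38), 0 of 7 in HC1 (median -0.28) and 0 of 7 over both sets (median -0.32), with 0 called. With that mean as a covariate, the HC2 difference was -0.47 for Id4 (adjusted p = 0.823), -0.31 for Id2 (adjusted p = 0.825), -0.50 for Nog (adjusted p = 0.763) and -0.26 for Bmp7 (adjusted p = 0.815), none of them called. In HC1 the same covariate gave -0.81 for Id4, -0.22 for Id2 and 0.21 for Bmp7. The part of proliferation was not tested beyond that fit, and that of astrocyte markers was not tested.

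**Figure D2:**
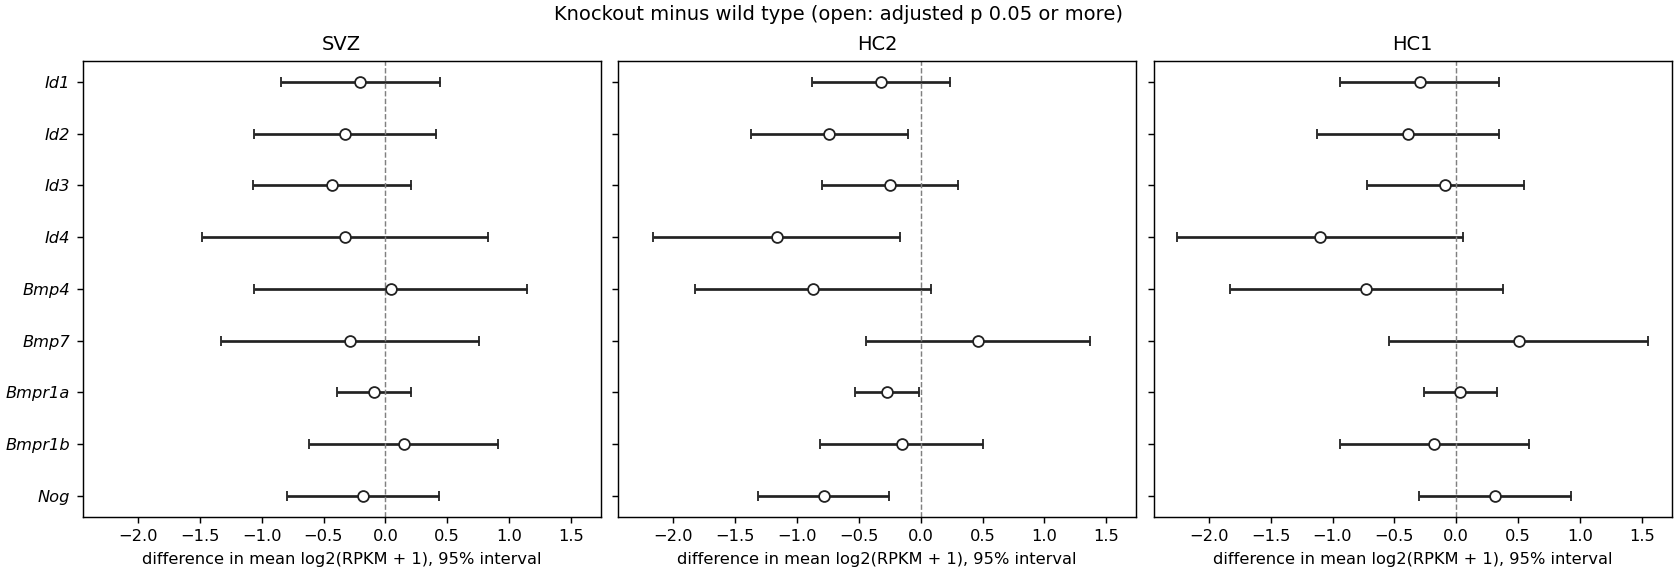
Points are KO minus WT differences in mean log2(RPKM + 1) for the 9 genes tested, with 95% intervals, in SVZ, HC2 and HC1 spheres. All points are open because no adjusted p was under 0.05, and Id4 lies farthest from 0 in HC2 (-1.17) and HC1 (-1.10).

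Between the 2 sets of hippocampal spheres, 3 of the 4 Id genes rose in HC2, together with the antagonist Nog and the receptor Bmpr1b. Id4 was 7.70-fold higher in HC2 than in HC1 by mean RPKM, Nog 3.59-fold, Id1 2.97-fold, Id3 2.47-fold and Bmpr1b 1.81-fold. So 5 of 9 genes were called higher and 0 lower, where 22.8% of all genes were called higher and 31.5% lower, 54.3% in all. The share called was thus near that of all genes, with every call in 1 direction. The median log2 difference was 0.74 over the 9 genes and -0.06 over all genes. HC2 and HC1 differ in set and depth together, and for WT also in donor sex, so these cannot be told apart.

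Id1 rose by 1.34 on the log2 scale (SE 0.20, adjusted p = 2.68e-05), with no overlap between the 8 HC2 and the 6 HC1 libraries. How many of all genes had no overlap was not worked out. Id3 rose by 1.26 (SE 0.20, adjusted p = 4.63e-05), and Id4 by 2.29 (SE 0.36, adjusted p = 4.65e-05). Exact permutation tests within genotype gave p = 0.00163 for Id1, 0.00245 for Id3 and 0.00163 for Id4. Id2 did not follow the other Id genes: it averaged 117 RPKM in HC2 and 117 RPKM in HC1, with a log2 difference of -0.14 (95% interval -0.62 to 0.35). Nog rose by 0.95 (SE 0.19, adjusted p = 0.000465), and Bmpr1b by 0.74 (SE 0.24, adjusted p = 0.0148). The HC1 side of the Nog value rests on 1 to 9 reads a library. Bmp4 gave -0.80 (adjusted p = 0.0610), Bmp7 -0.50 (adjusted p = 0.212) and Bmpr1a 0.15 (adjusted p = 0.196), none of them called. Smad6 gave an exact permutation p of 0.0122, resting on 9 to 12 reads in 3 HC2 WT libraries.

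In KO spheres alone, all from male donors, Id1, Id3 and Id4 were called, while Nog gave 0.41 (adjusted p = 0.252) and Bmpr1b 0.75 (adjusted p = 0.0886). In WT spheres alone Id1, Id3, Id4 and Nog were called and Bmpr1b gave 0.73 (adjusted p = 0.0986). Of all 16403 genes, KO alone called 2638 higher and 3650 lower, and WT alone 2429 and 3842, against 3738 and 5166 for both genotypes. Proliferation genes again moved with the comparison: 27 of 34 were called lower in HC2 and 0 higher. With their mean as a covariate Id1 gave 1.27 and Id3 1.42, Id4 was reduced to 1.41 (2.29 without the covariate) and Nog to 0.59 (0.95 without it), all called, while Bmpr1b was at 0.21 (adjusted p = 0.394) and was not. In that fit Bmp7 turned to 0.42 (adjusted p = 0.0153), and Id2 (-0.67) and Bmp4 (-1.15) were called lower. Of all genes, 3659 were called higher and 4584 lower. The mean was 1.56 to 5.75 in HC2 and 4.48 to 5.87 in HC1 libraries, so this fit rests in part on an extrapolated slope. Of 7 astrocyte markers, 2 were called higher in HC2 and 0 lower, with a summed level of 997 to 4314 RPKM in HC2 and 1245 to 2527 RPKM in HC1, and none of the 7 was at 0 throughout a group. Of 9 oligodendrocyte lineage markers 1 was called higher and 5 lower (median -0.73), with a summed level of 787 to 1212 RPKM in HC2 and 478 to 1032 RPKM in HC1. Of the kept markers, 2 of 4 ependymal and 1 of 2 choroid plexus ones were called higher, 3 of 10 neural stem ones higher and 3 lower, and 2 of 3 pericyte and fibroblast ones, 2 of 7 neuroblast ones, 1 of 2 endothelial ones and the 1 microglial one were called lower. Their part in the result was not tested.

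The region comparison set SVZ spheres, at 3 days, against hippocampal spheres, at 5 days, so region and culture day cannot be told apart. Against HC1, donor sex differs too for WT, with male SVZ and female HC1 donors, and cannot be told apart from them. Within the spheres1 libraries, Id1 was higher in SVZ than in HC1 (9.59 against 4.66 RPKM), with a log2 difference of 0.86 (SE 0.22, adjusted p = 0.00671), where 34.1% of all genes were called, 14.5% higher and 19.6% lower. Id4 averaged 0.445 RPKM in SVZ and 2.29 RPKM in HC1, and Bmp4 0.196 RPKM in SVZ and 2.30 RPKM in HC1. Both had 0 to 7 reads in each SVZ library and passed the low-value filter through their hippocampal libraries, so a lower SVZ value was built into their entry and their fitted differences are a description: -1.05 for Id4 (SE 0.39, adjusted p = 0.0456) and -1.37 for Bmp4 (SE 0.37, adjusted p = 0.0103).

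With Id4 and Bmp4 included, whose lower SVZ value was built in, 3 of 9 genes had an adjusted p under 0.05. That share was near the 34.1% of all genes, and Id1 was the 1 call not built in. The fitted differences moved with the libraries and settings used. Without the 2 SVZ libraries that go against their labels, Id1 was called, and Id4 (-1.08, adjusted p = 0.111) and Bmp4 (-1.27, adjusted p = 0.0566) were over 0.05. In that fit 1119 of all 16403 genes were called higher and 1815 lower, against 2372 and 3221 with every library. In KO spheres alone none of the 9 was called, with Id1 at 0.91 (adjusted p = 0.0778), where 432 of all genes were called higher and 726 lower. In WT spheres alone, where donor sex differs too, Bmp4 was the 1 gene under 0.05 (limma adjusted p = 0.0326), again as a description. There 1072 of all genes were called higher and 1746 lower. Proliferation genes had a median difference of 1.13 between SVZ and HC1. With their mean as a covariate Id1 was called, and Id4 (-0.39) and Bmp4 (-1.11) were over 0.05. That fit called 1472 of all genes higher and 2456 lower. That mean was 6.46 to 6.65 in SVZ, 4.48 to 5.87 in HC1 and 1.56 to 5.75 in HC2 libraries. SVZ overlaps neither hippocampal set, so covariate fits of SVZ against them rest on an extrapolated slope. Removing any 1 of 11 of the 12 libraries, HC1 WT replicate 3 excepted, raised the adjusted p of the Id4 description to between 0.0594 and 0.109.

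Against HC2, SVZ spheres had less Id4, Nog, Id3, Bmpr1b and Id1 and more Bmp7. Among all genes 67.2% were called, 34.7% higher and 32.6% lower. With Id4 and Nog included, which passed the filter through hippocampal libraries, 6 of 9 genes had an adjusted p under 0.05, a share near that of all genes. Id3 fell by 0.95 on the log2 scale (SE 0.20, adjusted p = 0.000480) and Bmpr1b by 0.93 (SE 0.24, adjusted p = 0.00242). Id1 fell by 0.48 (SE 0.20, adjusted p = 0.0459) and lost that call in 11 of 14 fits that left out 1 library (adjusted p between 0.0577 and 0.150), so its order between SVZ and HC2 is uncertain. Without the 2 SVZ libraries that go against their labels Id1, Id3, Bmpr1b and Bmp7 were still called, where 5265 of all genes were called higher and 4676 lower. Id4 and Nog passed the filter through hippocampal libraries, since 2 SVZ libraries reached 0.5 RPKM for Id4 and 1 did for Nog, so their fitted differences are a description: -3.34 for Id4 (SE 0.36, adjusted p = 5.19e-07) and -1.09 for Nog (SE 0.19, adjusted p = 9.38e-05). Bmp7 rose by 1.06 (SE 0.33, adjusted p = 0.00905), at 62.2 RPKM in SVZ and 34.1 RPKM in HC2. With the proliferation covariate the Bmp7 difference turned to -0.55 (adjusted p = 0.0201) and that of Id4 was reduced to -1.80 (adjusted p = 0.000426). Those of Bmpr1b (-0.01), Nog (-0.46) and Id1 (-0.35) were no longer called, while Id2 was called higher (0.95, adjusted p = 0.00331). That fit called 3481 of all genes higher and 3431 lower. SVZ and HC2 libraries do not overlap in that covariate, so these values rest on an extrapolated slope and are a description. Of 7 astrocyte markers 6 were called lower in SVZ than in HC2 and 2 lower than in HC1, with a summed level of 683 to 1236 RPKM in SVZ libraries, and 2 of 9 oligodendrocyte lineage markers were called lower and 1 higher than in HC2. Both kept endothelial markers were called higher in SVZ than in HC2 (median 1.06) and 1 of them higher than in HC1. For all these markers the part in these differences was not tested. Region, day, set and depth all differ in this comparison.

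**Figure D3:**
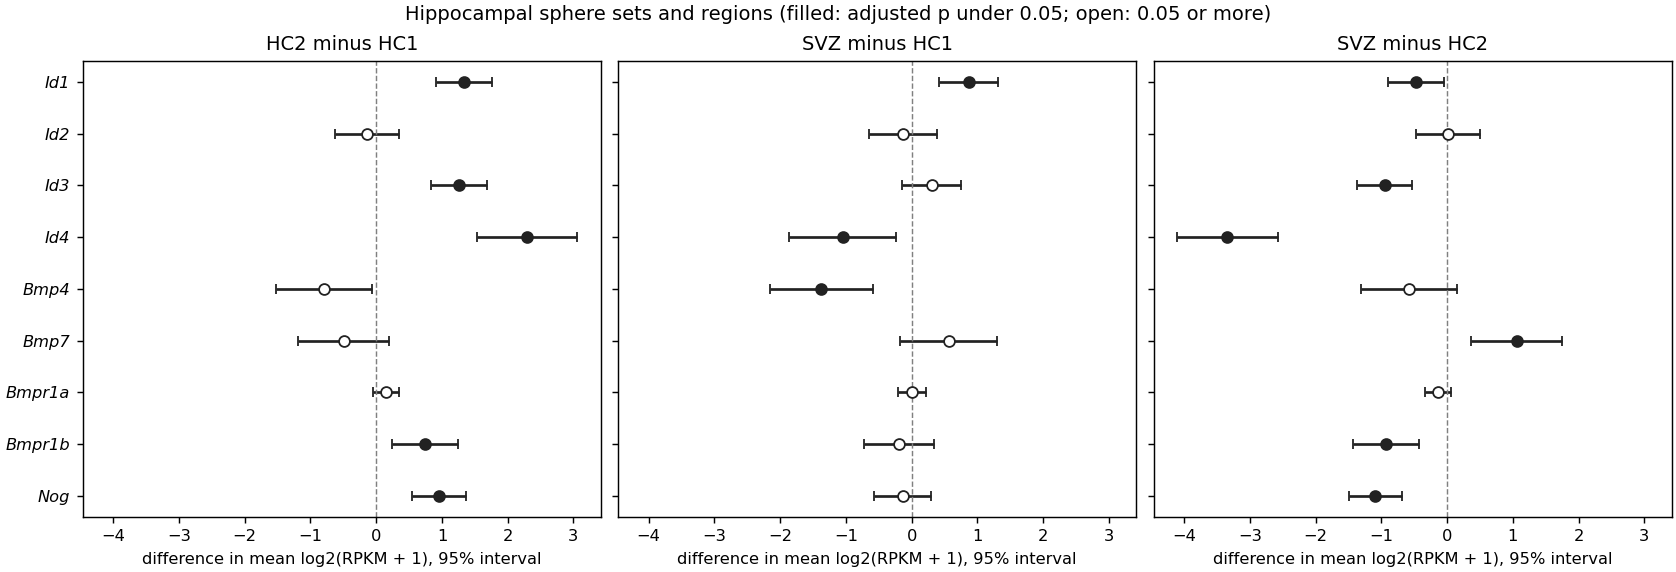
Points are differences in mean log2(RPKM + 1) with 95% intervals for HC2 minus HC1, SVZ minus HC1 and SVZ minus HC2; filled points had an adjusted p under 0.05. Id4 spans the widest range, at 2.29, -1.05 and -3.34 in the 3 panels, while Id2 lies within 0.14 of 0 in each.

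The HC2 libraries differed widely in proliferation genes, from a mean log2 level of 1.56 to 5.75, which allowed each gene to be followed along that range with genotype in the fit. The libraries with low proliferation genes had more Id2, Id4, Nog, Bmpr1a and Bmpr1b and less Bmp7. So 6 of 9 genes were called, 1 rising and 5 falling with proliferation, where 16% of all genes rose and 8.14% fell, 24.1% in all. Per unit of the proliferation mean, Bmp7 rose by 0.60 (SE 0.06, adjusted p = 0.000343), Id4 fell by 0.57 (SE 0.13, adjusted p = 0.0160) and Id2 fell by 0.37 (SE 0.08, adjusted p = 0.0157). Bmpr1b fell by 0.37 (SE 0.10, adjusted p = 0.0275), Nog by 0.24 (SE 0.07, adjusted p = 0.0314) and Bmpr1a by 0.14 (SE 0.04, adjusted p = 0.0274). Id1 (-0.06, 95% interval -0.32 to 0.20), Id3 (0.15, interval -0.09 to 0.39) and Bmp4 (-0.26, interval -0.73 to 0.21) were not called.

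At the ends of the range, HC2 WT replicate 5 had 242 RPKM of Id2, 42.8 of Id4, 5.19 of Nog and 9.83 of Bmp7, and HC2 WT replicate 2 had 74.7 RPKM of Id2, 7.41 of Id4, 1.401 of Nog and 66.6 of Bmp7. These ends are both WT libraries. Without HC2 WT replicate 2, Bmp7 was the 1 gene called, with Id4 at -0.60 (adjusted p = 0.150) and Id2 at -0.40 (adjusted p = 0.138). Calls among all 16403 genes dropped as well, to 585 rising and 263 falling, from 2620 and 1336 with all 8 libraries. Without HC2 WT replicate 3, 3 genes were called, Bmp7, Id2 and Id4, where 2000 of all genes rose and 937 fell. Without HC2 WT replicate 5, 4 were called, and Id2 (-0.33, adjusted p = 0.0562) and Nog (-0.21, adjusted p = 0.0978) were not. In that fit 2703 of all genes rose and 1469 fell. Over the 8 fits that each left out 1 library, Bmp7 was called in 8, Id4 in 7 and Id2 in 6. Nog was called in 5 of them, Bmpr1a in 4 and Bmpr1b in 3. Of 7 astrocyte markers 5 fell with proliferation and 0 rose, with a summed level of 1342 to 3656 RPKM in HC2 KO and 997 to 4314 RPKM in HC2 WT libraries. Their part in these slopes was not tested.

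Correlations with the proliferation mean over the 8 HC2 libraries, both genotypes together, made 10 relations, each with exact permutation tests and Benjamini-Hochberg adjustment over the 10. For Bmp7, Pearson's r was 0.97 (permutation p = 0.00025, adjusted 0.00248) and Spearman's rho 0.95 (permutation p = 0.00114, adjusted 0.00570). For Id2, r was -0.88 (permutation p = 0.00246, adjusted 0.00909) and rho -0.95 (permutation p = 0.00114, adjusted 0.00570). For Id4, r was -0.88 (permutation p = 0.00389, adjusted 0.00973) and rho -0.88 (permutation p = 0.00724, adjusted 0.0181). Leaving out the 2 libraries farthest from the median, HC2 WT replicates 2 and 5, gave r = 0.93 for Bmp7, -0.81 for Id2 and -0.83 for Id4 over 6 libraries. Id1 (r = -0.32, permutation p = 0.431, rho = -0.24, permutation p = 0.582) and Id3 (r = 0.29, permutation p = 0.521, rho = 0.40, permutation p = 0.327) had none that passed, nor had Bmp4 (r = -0.54, permutation p = 0.163, rho = -0.60, permutation p = 0.132). Bmpr1a had r = -0.90 (permutation p = 0.00273, adjusted 0.00909), Nog r = -0.84 (permutation p = 0.0149, adjusted 0.0298) and Bmpr1b r = -0.79 (permutation p = 0.0252, adjusted 0.0362), though rho for Bmpr1b was -0.64 (permutation p = 0.0962, adjusted 0.137). Smad6, on 1 to 12 reads a library, had r = -0.79 (permutation p = 0.0254, adjusted 0.0362) and rho -0.74 (permutation p = 0.0458, adjusted 0.0764). Each of the 8 libraries is 1 point in all of these relations, and the genes share the same libraries.

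**Figure D4:**
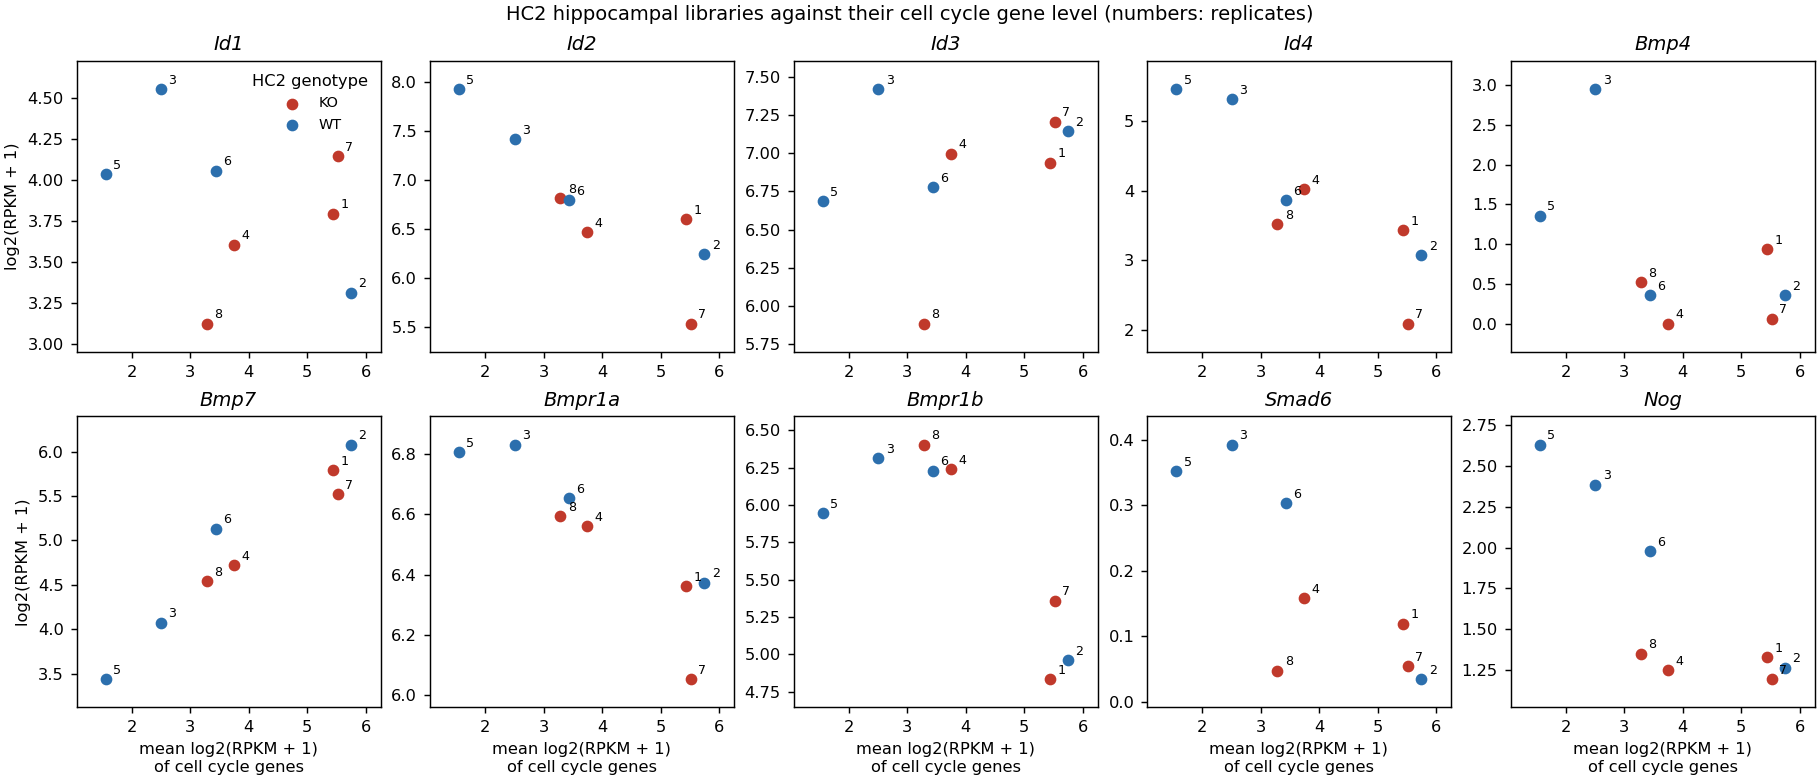
Each point is 1 HC2 library, numbered by replicate, KO red and WT blue, with the mean log2(RPKM + 1) of 34 proliferation genes on the x axis and the gene's log2(RPKM + 1) on the y axis. Bmp7 climbs with the x axis (r = 0.97), Id2 and Id4 descend (r = -0.88 each), and Id1 and Id3 show no call.

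The other genes of the pathway came from a list of 56, of which 55 were in the table and 31 were kept. In KO against WT spheres none of the 31 was called in the SVZ, HC2, HC1 or over both hippocampal sets, by limma, and 0, 1, 2 and 2 had an unadjusted p under 0.05. The smallest p among them and the bHLH partners belonged to Bhlhe22, a bHLH repressor, in HC2 (-0.64, adjusted p = 0.804), to Acvr1, a type I receptor, in HC1 (0.49, adjusted p = 0.675) and to Rgmb, a BMP co-receptor, in the SVZ (-0.28, adjusted p = 1.00). The next were Skil in HC2 (-0.37), Bmp3 in HC1 (-0.95) and Bmper in the SVZ (-0.38), and over both sets Tcf4 (-0.23) and Bhlhe22 (-0.35). Median KO minus WT differences of the 31 were -0.04 in the SVZ, -0.11 in HC2 and -0.01 in HC1, where the median of all genes was -0.01 in HC1 and nearer 0 in the SVZ and HC2.

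In HC2 against HC1, 10 of the 31 pathway genes rose and 7 fell, 54.8% in all, where 22.8% of all genes rose and 31.5% fell, 54.3% in all. The share called was thus near that of all genes. Crim1, a membrane protein that binds BMPs, rose by 1.28 (adjusted p = 4.78e-05), and Bmp1, a protease that cleaves the antagonist Chordin, by 0.47 (adjusted p = 0.000100). The receptor Acvr1 fell by 1.18 (adjusted p = 1.36e-09), Tob1, an inhibitor of BMP Smads, by 0.81 (adjusted p = 1.45e-05), the type II receptor Acvr2b by 0.63 and the co-receptor Eng by 0.44 (adjusted p = 0.00150). By role, 5 of 9 kept extracellular antagonists and modulators rose and 1 fell, and 0 of 7 other receptors and co-receptors rose and 4 fell; the difference between roles was not tested. The median was 0.09 over the 31 and -0.06 over all genes. Receptors thus went both ways, with Bmpr1b higher and Acvr1 lower.

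Id proteins act on bHLH factors, of which 14 were listed and 12 kept. None was called between KO and WT in any comparison, with 0, 2, 1 and 2 at an unadjusted p under 0.05 in the SVZ, HC2, HC1 and both hippocampal sets. In HC2 against HC1, 8 of 12 rose and 0 fell, with a median of 0.56, where 22.8% of all genes rose and 31.5% fell. Olig1, an oligodendrocyte lineage factor, rose by 1.37 (adjusted p = 1.09e-05), while 5 of the 9 oligodendrocyte lineage markers were lower and Olig1 was the 1 called higher. Tcf3, which encodes an E protein that Id proteins bind, rose by 0.65 (adjusted p = 1.74e-05).

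In SVZ against HC1, 2 of 31 pathway genes rose and 5 fell, and 2 of 12 bHLH genes rose and 2 fell, where 14.5% of all genes rose and 19.6% fell. Tcf3 (0.55), Acvr1 (0.42), Tcf12 (0.35) and Bambi (0.52), a pseudoreceptor that dampens BMP signalling, rose. Tcf4 (-0.40), the ligand Bmp3 (-1.31), the antagonist Chrd (-0.54) and Hes5 (-1.34), a Notch target, fell. Against HC2, 6 of 31 rose in the SVZ and 14 fell, and 1 of 12 bHLH genes rose and 6 fell, where 34.7% of all genes rose and 32.6% fell. Acvr1 (1.60), Tob1 (0.67), Tcf12 (0.48) and Chrdl1 (1.34) rose there, and Smad9 (-1.57), a receptor Smad, Hes5 (-2.72), Chrd (-0.83) and Bmp3 (-1.86) fell. The 2 comparisons share the SVZ libraries.

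Along the proliferation range of HC2, 4 of 31 pathway genes rose and 4 fell, and 2 of 12 bHLH genes rose and 1 fell, where 16% of all genes rose and 8.14% fell. The shares called, 25.8% and 25.0%, were near the 24.1% of all genes. Chrdl1, a Chordin-like antagonist, rose by 0.46 per unit (adjusted p = 0.00532), Bambi by 0.31, Olig2 by 0.28 and Olig1 by 0.24. Rgma, a BMP co-receptor, fell by 0.63 (adjusted p = 7.35e-05), Nbl1, an antagonist of the DAN family, by 0.40 (adjusted p = 0.00104), Hey1 by 0.27 and Twsg1 by 0.17. Antagonists were therefore found on both sides: Nog and Nbl1 fell with proliferation and Chrdl1 rose.

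Among all kept genes, those whose log2 levels followed each Id gene most closely over the 20 libraries were listed by Pearson's r, as a description that includes the differences between groups. For Id4 they were Igdcc4, Sirt7 and Lsr (r = 0.97 each), and for Id3 they were Sox3 (0.94), Eid2 (0.93) and Dpm3 (0.92). For Id1 they were Scrib (0.90), Smo (0.88) and Gpc1 (0.87), and for Id2 Ncoa2 (0.84), Efhd2 (0.80) and Apcdd1 (0.79). No gene was on the list of more than 1 Id gene.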

How the data were processed

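Per the labels' protocols, the 20 libraries were made from Trizol RNA with a stranded kit that removes ribosomal RNA, followed by exon capture. The authors deposited 1 total RPKM value for each gene and library, on a linear scale per the file headers, with decimal commas; a gene without a value was read as 0. Per the submitters' processing notes, FastQC 0.11.5, DESeq2 and the build mm10 (GRCm38) were used. Aligner, counter, gene lengths and use of strand: not given in the sources used here. RPKM are not counts, so DESeq2 was not run here.

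A gene was kept when 3 or more of the 20 libraries reached 0.5 RPKM (16403 of 36724). Values were tested as log2(RPKM + 1), which understates changes of low genes. The model, in limma 3.58.1 under R 4.3.3, had 6 group means and 14 residual degrees of freedom (eBayes with trend and robust). Adjusted p-values are two-sided, Benjamini-Hochberg over all kept genes, with a threshold of 0.05. The slope fit used the 8 HC2 libraries with genotype and the mean of 34 cell cycle genes. Exact permutation tests were two-sided, within genotype or set. The limma p-values set each difference or slope against the spread between libraries, moderated across genes. Permutation p-values are the share of arrangements with a value at least as large in size. Mean ± SD are of RPKM. The fits were tested on simulated data first.

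The 10 genes and all lists were chosen with earlier results of these data known. Named genes are the 10 plus, per comparison and direction, up to 4 called list members of smallest p, or the 2 of smallest p where none was called. Read numbers were worked out from the values and coding length (GENCODE M21) for Id4, Bmp4, Smad6 and Nog, where 100% of values up to 30 reads were whole within 0.1 read; depth was worked out from single-exon genes. Promoter sequences are from RefSeq. Python 3 with scipy and matplotlib was used for the exact tests and figures.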

Additional observations from a re-analysis of the deposited data

How the results depend on the processing

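Alternatives were a pseudocount of 0.1, no low-value filter, the authors' filtered gene list, median-ratio and quantile scaling, array weights, the proliferation mean as a covariate, fits of the compared groups alone, 1 genotype alone, and leaving out each library. Under these, all 621 KO minus WT values of the 9 genes stayed uncalled, 18 of them with a change of sign; of 621 region and set values, 46 lost the call, 16 gained it and 2 reversed, and of 108 slopes 15 lost it. The 2 that reversed were Bmp7 with the proliferation covariate, at 0.42 in HC2 minus HC1 and -0.55 in SVZ minus HC2. The SVZ value rests on an extrapolated slope, since SVZ and HC2 do not overlap in that covariate. The other rests on one in part, since HC2 reaches far below HC1 in it. The cause was not tested. Of the 3 adjusted p under 0.05 in SVZ minus HC1, those of Id4 and Bmp4 are descriptions. Id1 was left with that covariate and without the 2 SVZ libraries that go against their labels. None was left in KO alone, and in WT alone only Bmp4 was. In KO alone, with fewer libraries, Id3, Id4 and Nog were left in SVZ minus HC2, Id4 and Nog as descriptions. There 4488 of all genes were called higher and 4018 lower. HC2 minus HC1 kept 3 calls in KO alone. Calls among all genes were fewer in each of these fits too. Leaving out 1 library gave 2 to 3 adjusted p under 0.05 in SVZ minus HC1 and 5 to 6 in SVZ minus HC2, descriptions included. It gave 5 to 6 calls in HC2 minus HC1 and 0 in every KO comparison. For the slopes it gave 1 (without HC2 WT replicate 2) to 6, with 3 without HC2 WT replicate 3. Calls among all genes were also fewest without HC2 WT replicate 2. Deviations of same-numbered SVZ and HC1 libraries correlated at -0.26 to 0.01. Only SVZ KO replicate 1 correlated best with the WT library of its own number, so the numbers were not taken as pairs. With the replicate number as a block, 0 of the 9 genes were called in the SVZ and 0 in HC1, and the block changed no call. At 0 to 12 reads a library, depth limits Id4 and Bmp4 in the SVZ and Smad6 throughout. The same holds for Nog in SVZ and HC1 libraries and for Id4 in HC1 KO libraries.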
